A study of Mus musculus with 144 samples.

Results

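A set of 10 genes of the glucuronidation pathway was followed through a time course of mouse hepatocytes in culture, with and without TCDD, the dioxin 2,3,7,8-tetrachlorodibenzo-p-dioxin. They are Ugdh, 7 genes of the UDP-glucuronosyltransferase family 2 (Ugt2a3, Ugt2b1, Ugt2b5, Ugt2b34, Ugt2b35, Ugt2b36 and Ugt2b38) and the 2 genes of family 3 (Ugt3a1 and Ugt3a2). The genes were chosen by symbol and are 10 of the 55359 genes counted. Genes of the Ugt1a cluster were left out because their transcripts share exons, so that most of their reads cannot be assigned to 1 gene.

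Glucuronidation is a conjugation reaction of the liver in which a glucuronic acid is joined to a drug, steroid, bile acid or pigment, so that it dissolves in water and can be carried into bile or urine. UDP-glucose dehydrogenase, encoded by Ugdh, oxidizes UDP-glucose to UDP-glucuronate in the cytosol and thereby makes the donor of the reaction. The UGT2 enzymes sit in the membrane of the endoplasmic reticulum and transfer glucuronic acid from this donor to their substrates, whereas the UGT3A enzymes are known to use other UDP-sugars. TCDD binds the aryl hydrocarbon receptor (AHR), which acts through dioxin response elements (DREs) in the DNA, and enzymes of conjugation are among the genes for which this receptor is known.

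The study asked how the response of hepatocytes to TCDD differs when a DRE in an intron of Pkm, the gene of pyruvate kinase M, has been deleted. Primary hepatocytes were isolated from livers of male mice, 28 days old and of strain C57BL/6NCrl by their labels, either wild type (WT) or of the PkmΔDRE line, in which the deletion is carried in the germ line and thus in all cells. They were given 10 nM TCDD or its vehicle dimethyl sulfoxide (DMSO) and harvested at 9 times, namely in the first day after 2, 4, 8, 12 and 24 h and then daily from 48 h up to 120 h, which gave 36 groups of 4 RNA-Seq libraries. Medium in every group contained dexamethasone, a synthetic glucocorticoid, and the labels and the methods do not give the same plate format for these cultures.

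Between 13588848 and 30719161 read pairs per library were counted on genes, with a median of 18011825. Levels are given as CPM, a gene's counts relative to the total of its library after scaling across all libraries. Expression of Pkm did not follow the genotype labels. Averaged over the 9 hours, its difference of TCDD from DMSO was 0.61 on the log2 scale (SE 0.16, adjusted p = 0.0156, edgeR) in libraries labelled PkmΔDRE and -0.26 (SE 0.17, adjusted p = 0.228) in those labelled WT. The difference between these averages was 0.88 (SE 0.24, adjusted p = 0.0504) and was not called, and all groups are named below by the labels of their libraries. Cyp1a1, the classical target gene of AHR, had a mean of 2.99 CPM in DMSO and 2316 CPM in TCDD at 8 h in libraries labelled WT, and of 2.67 and 3754 CPM in those labelled PkmΔDRE. In 4 libraries labelled WT its level went against the treatment label, namely 1 DMSO library at 48 h (3285 CPM), 1 DMSO library at 96 h (1717 CPM), 1 TCDD library at 2 h (1.15 CPM) and 1 TCDD library at 72 h (29.2 CPM). Nothing in the labels says that the 4 libraries of a group came from separate animals, so p-values measure the spread between these libraries, which may be technical.

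A pair of vehicle libraries labelled PkmΔDRE carried the profile of another hour. Over 10064 genes, replicate 4 of the 4 h group had a correlation of 0.696 with the other libraries of its group and of 0.982 with WT vehicle libraries at 96 h. Replicate 4 of the 96 h group had 0.677 with its own group and 0.984 with the PkmΔDRE libraries given TCDD for 4 h, while the other libraries had 0.823 to 0.994 with their own group. These 2 libraries decide the values of several of the 10 genes. Ugt2b1 was at 0.815 CPM in the 4 h library, against 207 to 248 CPM in the other 3 libraries of that group, and at 249.4 CPM in the 96 h library, against 0.743 to 1.83 CPM. Ugt3a2 was at 2.55 CPM in the 4 h library against 273 to 303 CPM, and at 257 CPM in the 96 h library against 4.44 to 5.16 CPM. Results of their groups and fits are given with and without them unless stated otherwise. These libraries are called the outlying 4 h and 96 h libraries for short.

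Hepatocyte markers (Alb, Apoa1, Ttr, Fgb and Cyp2e1) summed to 123900 to 167400 CPM in WT vehicle libraries at 2 h and to 2906 to 17780 CPM at 120 h. Over the same time, 4 cholangiocyte markers (Krt19, Epcam, Sox9 and Spp1) went in sum from 55.8 to 140.8 CPM to 572 to 1055 CPM. Spp1 gave most of the later sum (mean 635 CPM), Krt19 also rose, and libraries overlapped for Sox9. Epcam went the other way, from 1.19 to 2.92 CPM to 0 to 1.03 CPM. The sum of 5 macrophage markers went from 133.7 to 204.6 CPM to 13.5 to 52.2 CPM. Endothelial markers went from 255 to 338 CPM to 32.9 to 86.5 CPM, and stellate cell markers from 5.16 to 12.98 CPM to 12.2 to 85.9 CPM. Leukocyte markers (Ptprc, Cd3e and Cd79a) were at most 2.31 CPM in sum at 8 h. Fewer cells of a type and less RNA per cell cannot be told apart in these bulk libraries, and the part of these shifts in the results below was not tested.

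The sequences upstream of Ugdh and of the UGT2 genes differed in the motifs they held. Promoters of 9 of the 10 genes were matched in RefSeq (build GRCm38.p6), and each was searched on both strands from 250 bases before to 50 bases after the start of the gene. The stretch of 250 bases before the start of Ugdh, at chr5:65435843-65436092 on the minus strand, is shown because it held both motifs that the search began with, GCGTG, the core of the DRE, and TGACNNNGC, the core of the antioxidant response element. Capitals mark them, with CACGC as GCGTG on the other strand.

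Ugdh: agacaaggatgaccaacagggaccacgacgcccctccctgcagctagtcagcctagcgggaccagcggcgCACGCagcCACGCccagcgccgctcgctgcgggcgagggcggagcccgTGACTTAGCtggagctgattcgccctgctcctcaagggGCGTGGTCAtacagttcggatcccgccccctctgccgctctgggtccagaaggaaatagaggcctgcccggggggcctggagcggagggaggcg

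GCGTG began at positions -180 and -172 on the opposite strand and at -94 on the strand of the gene, counted from the start. Of 32851 RefSeq promoters of this length, 32.4% held it at least once and 3.91% at least 3 times. TGACNNNGC began at -132, and a second copy on the opposite strand at -94 overlapped the third GCGTG. It was in 12.4% of promoters, and both motifs together were in 4.79%. A match is a description of the letters and no evidence of a bound site.

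None of the 7 promoters of UGT2 genes held GCGTG or TGACNNNGC in this window, and each motif is also absent from most promoters of all genes. Of the 7, 6 shared a run close to the start, made of GTTA, 4 bases of any kind and TTAAC. This form was chosen after the sequences had been seen, and it was in 62 of all 32851 promoters (0.189%). The consensus of the liver factor HNF1 (GTTAAT, 1 base of any kind and ATTAAC) is a stricter case of this form. It was in none of the 9 promoters searched and in 0.00913% of all. Stretches of 100 bases before the start are shown for these 6 genes with the run in capitals, to show how alike they are, and for Ugt2a3 with 2 copies of GTTAAT, the first part of that consensus, in capitals, which 7.1% of promoters hold. They lie at chr5:86926504-86926603 (Ugt2b1), chr5:86906938-86907037 (Ugt2b34), chr5:87140341-87140440 (Ugt2b5), chr5:87092556-87092655 (Ugt2b36), chr5:87424204-87424303 (Ugt2b38) and chr5:87337196-87337295 (Ugt2a3) on the minus strand, and at chr5:87000760-87000859 (Ugt2b35) on the plus strand.

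Ugt2b1: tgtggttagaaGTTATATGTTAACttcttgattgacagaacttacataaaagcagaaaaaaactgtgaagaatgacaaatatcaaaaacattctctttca
Ugt2b34: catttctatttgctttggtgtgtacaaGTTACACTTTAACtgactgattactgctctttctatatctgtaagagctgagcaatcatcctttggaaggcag
Ugt2b5: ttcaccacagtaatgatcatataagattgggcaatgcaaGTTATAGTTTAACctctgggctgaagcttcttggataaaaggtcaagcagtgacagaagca
Ugt2b38: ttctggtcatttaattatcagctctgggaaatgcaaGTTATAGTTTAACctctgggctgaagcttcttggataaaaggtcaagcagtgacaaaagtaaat
Ugt2b36: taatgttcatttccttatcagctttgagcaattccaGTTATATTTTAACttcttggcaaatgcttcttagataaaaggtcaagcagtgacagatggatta
Ugt2b35: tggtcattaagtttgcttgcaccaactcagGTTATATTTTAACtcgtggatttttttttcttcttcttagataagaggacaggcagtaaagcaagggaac
Ugt2a3: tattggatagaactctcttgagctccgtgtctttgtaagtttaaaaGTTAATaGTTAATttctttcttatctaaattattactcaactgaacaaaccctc

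The run began at -89 in Ugt2b1, -73 in Ugt2b34, -70 in Ugt2b35, -64 in Ugt2b36 and Ugt2b38 and -61 in Ugt2b5. Ugt3a1 also held it, farther from the start at -130. The coding sequences of some genes were close enough to affect counting. Ugt2b5 and Ugt2b38 had 97.04% of coding bases in common, Ugt3a1 and Ugt3a2 93.2%, Ugt2b5 and Ugt2b36 88.6%, and Ugt2b35 and Ugt2b36 88.3%. Of all windows of 150 bases in the transcript of Ugt2b5, 19.5% occurred in that of Ugt2b38, and 19.2% the other way round. Pairs with both reads in shared sequence map to both genes and are not counted, so the counts of these 2 genes are the least certain. The share of windows is not the share of pairs lost. Ugdh shared 0.416% of its windows with the overlapping predicted gene Gm43552, and the other 7 genes shared none.

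Freshly plated hepatocytes expressed all 10 genes, with Ugt2b5 ahead of the others. Levels of different genes were compared as CPM per kilobase of exon. In WT vehicle libraries at 2 h, Ugt2b5 was at 340 ± 57.2 CPM per kilobase (SD, n = 4). Ugt2b1 (184 ± 31.3), Ugt2b36 (172.3 ± 58.2) and Ugt3a2 (146 ± 16.2) followed and did not differ from each other beyond their spread. Ugt2a3 stood at 98.7 ± 17.1 CPM per kilobase. Ugt2b34 (34.9 ± 15.1), Ugt3a1 (29.01 ± 8.59), Ugdh (27.6 ± 2.88), Ugt2b35 (16.1 ± 7.02) and Ugt2b38 (12.3 ± 8.41) formed the low end, where neighbours overlapped in their spread.

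Time in culture divided the 10 genes. Ugt2a3, Ugt2b1, Ugt2b38, Ugt3a1 and Ugt3a2 were lost almost completely by 120 h, Ugt2b5 and Ugt2b36 fell in part, Ugt2b34 fell and returned, and Ugdh and Ugt2b35 ended above their starting level. Genes were called where edgeR's quasi-likelihood test gave an adjusted p-value under 0.05 and the fold change reached 1.5. In vehicle libraries labelled WT, 8 of the 10 genes were lower at 24 h than at 2 h and none was higher, where 20% of all 15862 genes tested were called lower and 25.8% higher. At 120 h, 7 genes were lower and 2 higher, where 24.5% of all genes were lower and 33.4% higher. The median of the 10 log2 differences was -4.64 at 120 h, and that of all genes was 0.21.

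**Figure D1:**
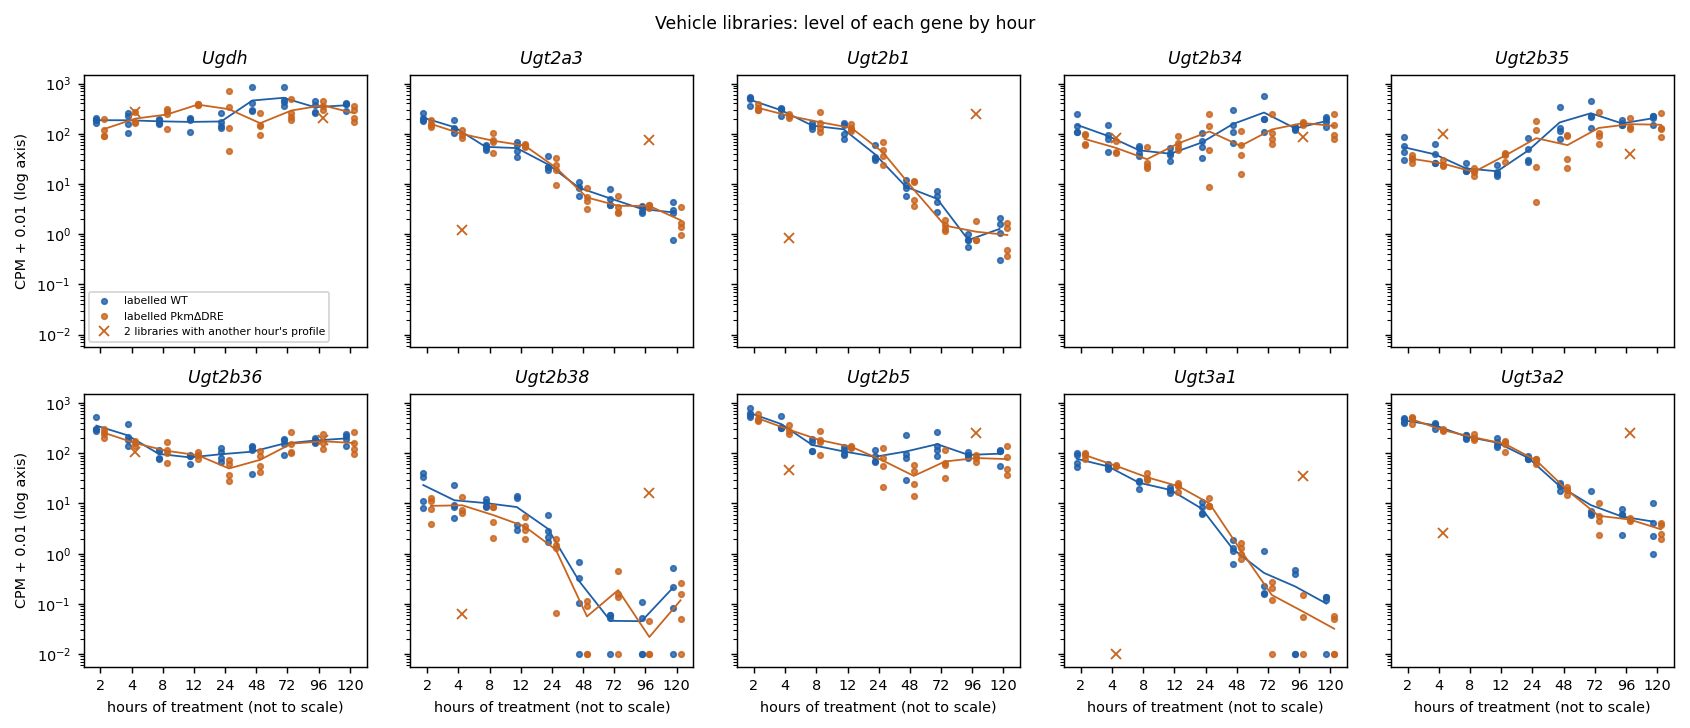
Level of each of the 10 genes in the vehicle libraries (CPM + 0.01, log axis) against hours of treatment, with points for single libraries, crosses for the 2 outlying libraries and lines for the means of the other libraries of each label. Ugt2b1 falls from a mean of 474 CPM at 2 h to 1.26 CPM at 120 h in libraries labelled WT, while Ugdh goes from 186 to 368 CPM.

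Ugt2b1 was the gene with the largest loss that could be measured. Its level in the 4 WT vehicle libraries was 535, 515, 491 and 357 CPM at 2 h, 32.1, 30.3, 60.8 and 33.8 CPM at 24 h, and 1.62, 2.08, 0.296 and 1.06 CPM at 120 h. No library of a later hour overlapped one of an earlier hour among these 3, and the difference of 120 h from 2 h was -8.73 on the log2 scale (SE 0.44, adjusted p = 6.42e-17, edgeR). Ugt2a3, a neighbour in the UGT2 cluster on chromosome 5, went from 182, 203, 262 and 189.6 CPM to 2.69, 4.38, 0.740 and 3.01 CPM (-6.43, SE 0.36). Ugt3a2 went from 401, 505, 485 and 419.8 CPM to 2.28, 9.99, 0.999 and 4.14 CPM (-6.88, SE 0.47). Ugt3a1 went from 53.02, 63.4, 101.3 and 92.2 CPM to at most 0.128 CPM, where its 10 counts over 4 libraries leave no usable fold, and Ugt2b38 from 40.4, 33.1, 11.4 and 8.17 CPM to at most 0.510 CPM.

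The time of the loss was shared by these genes. At 4 h, none of the 10 genes was called in libraries labelled WT (edgeR, 3 at an unadjusted p under 0.05), where 2.89% of all genes were called. At 8 h 8 genes were lower than at 2 h, all but Ugdh and Ugt2b38, where 16% of all genes were, and at 12 h 9 genes were lower, all but Ugdh, where 17% of all genes were. Differences at 12 h lay between -2.62 for Ugt2b5 (SE 0.37) and -1.57 for Ugt3a2 (SE 0.37) among the 9 genes. From 12 h on the genes parted. Between 12 and 120 h, Ugt2b1 went from a mean of 122.5 ± 40.96 to 1.26 ± 0.769 CPM (SD, n = 4) and Ugt3a2 from 163 ± 31.7 to 4.35 ± 3.97 CPM, while Ugt2b35 went from 17.9 ± 4.21 to 204 ± 35.9 CPM.

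Ugt2b35 and Ugdh were the 2 genes above their starting level at 120 h. The 4 WT vehicle libraries had 43.2, 29.9, 84.9 and 57.9 CPM of Ugt2b35 at 2 h, 23.9, 15.8, 17.6 and 14.3 CPM at 12 h and 226, 229, 152 and 209 CPM at 120 h. All libraries at 120 h were above all at 2 h, with a difference of 1.77 (SE 0.38, adjusted p = 0.000187, edgeR). Ugdh had 208, 191, 184 and 161 CPM at 2 h and 384, 286, 386 and 416 CPM at 120 h, again without overlap (0.81, SE 0.29, adjusted p = 0.0173). Leaving out the fourth library of each group took this call of Ugdh away. The highest mean of Ugdh was at 72 h, with 466, 426, 836 and 349 CPM.

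The remaining 3 genes of family 2 kept part of their level. Ugt2b5, the most abundant at 2 h, went from 621, 534, 781 and 587 CPM to 112.5, 109.6, 55.8 and 114.1 CPM at 120 h (-2.85, SE 0.38). Ugt2b36 reached its lowest mean at 12 h, 82.7 ± 14.5 CPM (SD, n = 4), and stood at 216, 246, 136.5 and 191 CPM at 120 h, lower than at 2 h by the test (adjusted p = 0.00472, edgeR). Ugt2b34 was at 106.8, 106.9, 244 and 143.4 CPM at 2 h, at 52.8, 38.2, 40.4 and 28.3 CPM at 12 h and at 214, 172.4, 134.7 and 194 CPM at 120 h, and the last hour was not called against the first (0.10, SE 0.39, adjusted p = 0.841).

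Vehicle libraries labelled PkmΔDRE were divided in a similar way at 120 h. Of the 10 genes, 7 were lower and 1 was higher than at 2 h, where 22.7% of all 15968 genes were lower and 26.8% higher. Ugt2b1 went from 299, 323, 293 and 396 CPM to 0.484, 1.30, 0.361 and 1.67 CPM (-8.59, SE 1.498), and Ugt2b35 from 26.4, 32.8, 30.8 and 37.004 CPM to 130.2, 263, 124.9 and 85.3 CPM (2.06, SE 0.67, adjusted p = 0.0119). The calls of Ugt2b35 and Ugt2b36 at 120 h each held in 1 of the 4 fits without a replicate. At 24 h, 6 genes were lower and none higher, against 15.2% and 18% of all genes (33.2% either way). This count was 2 without replicate 1, 3 without replicate 2 or 3 and 9 without replicate 4 of every group. The calls of Ugt2b1, Ugt3a1 and Ugt3a2 each held in 1 of these 4 fits, whose shares of all genes called are not given. Between these hours, 7 genes were lower and none higher at 48 h, where 37.5% of all genes were called, 7 lower and 1 higher at 72 h, where 42.3% were, and 4 lower and 1 higher at 96 h, where 30.8% were. Before 24 h, none was called at 4 h (edgeR, 1 at an unadjusted p under 0.05), where 2.59% of all genes were higher and 1.27% lower (3.86% in all), 1 was lower at 8 h, where 5.52% were higher and 5.5% lower (11% in all), and at 12 h Ugt2b5 and Ugt2b36 were lower and Ugdh was higher (1.55, SE 0.48, adjusted p = 0.0196), where 24.1% of all genes were called. The outlying libraries share the fit with these hours. Without them 5 genes were lower at 8 h (17.4% of all genes called), 6 lower and 1 higher at 12 h (29.3%) and 6 lower and 2 higher at 96 h (42%). The count was then 0 at 4 h (1.19% of all genes called), 7 at 24 h (36.2%) and 7 at 48 h (39.6%). It was 8 at 72 h (44%) and 8 at 120 h (50.5%), and the SE of Ugt2b1 at 120 h was 0.52 in place of 1.498.

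The makeup of the UGT transcripts also shifted with time in culture. The 9 UGT genes together summed to 1033 ± 164 CPM per kilobase in WT vehicle libraries at 2 h (SD, n = 4), to 179 ± 35.6 at 24 h and to 254 ± 55.1 at 120 h. At 2 h, Ugt2b5 made up 32.9% ± 2.25 of this sum, Ugt2b1 18.03% ± 3.48, Ugt2b36 16.4% ± 2.78, Ugt3a2 14.3% ± 1.98 and Ugt2a3 9.55% ± 0.470. At 120 h, Ugt2b36 led with 37.7% ± 2.43, followed by Ugt2b35 with 24.1% ± 1.30, Ugt2b5 with 20.5% ± 2.48 and Ugt2b34 with 16.5% ± 1.96, and each of the other 5 genes was under 1%. Libraries labelled PkmΔDRE had a similar makeup at both ends, with 32.8% ± 1.39 Ugt2b5 at 2 h and 39.6% ± 2.52 Ugt2b36 at 120 h. Their share of Ugt3a2 at 2 h was 19.06% ± 3.175. In between, their share of Ugt2b36 was 16.33% ± 7.72 at 24 h and 37.92% ± 4.025 at 48 h. With the label WT it was 25.69% ± 2.734 and 26.51% ± 9.654. The hepatocyte marker sum in WT vehicle libraries went from a median of 154000 to 8699 CPM between 2 and 120 h.

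**Figure D2:**
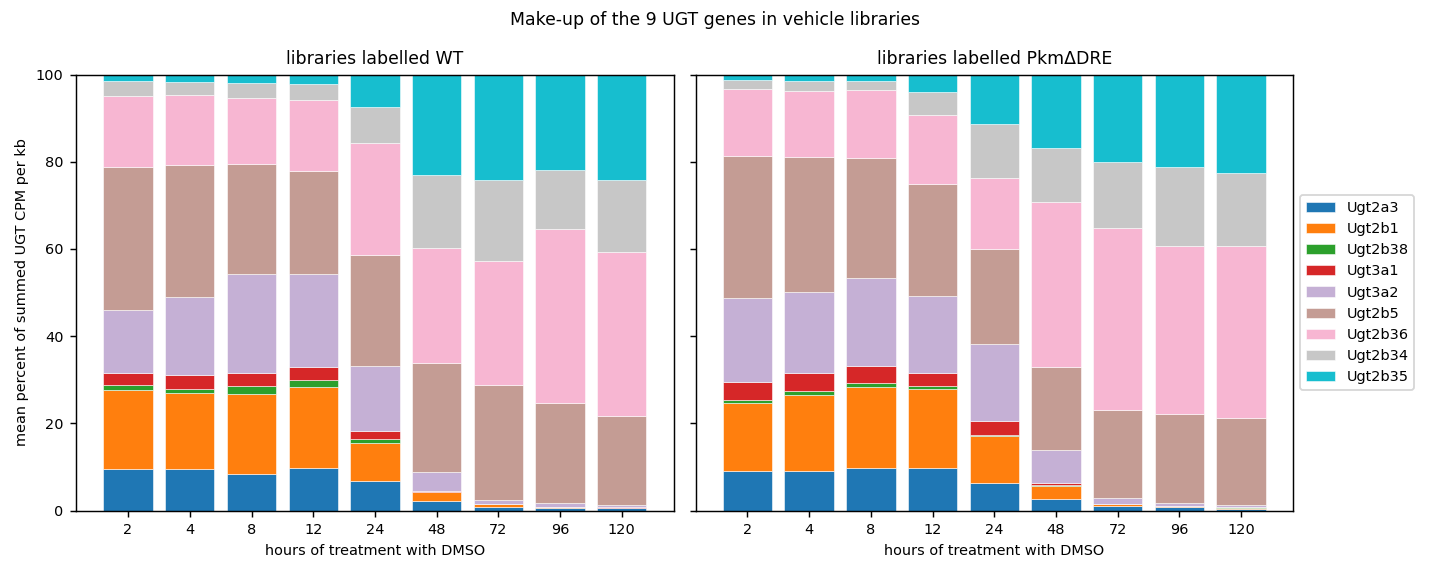
Share of each of the 9 UGT genes in their summed CPM per kilobase (percent, mean of the vehicle libraries without the outlying ones) at each hour, for libraries labelled WT and PkmΔDRE. Ugt2b1, Ugt2a3 and Ugt3a2 make up a large part at 2 h and under 1% each at 120 h, when Ugt2b36, Ugt2b35, Ugt2b5 and Ugt2b34 make up the rest.

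Vehicle libraries of the 2 labels differed at 1 hour only by the test. At 12 h, Ugdh stood at 379, 366, 386 and 388 CPM in libraries labelled PkmΔDRE and at 194, 184, 203 and 106.1 CPM in those labelled WT, without overlap (1.17, SE 0.29, adjusted p = 0.0498, edgeR). Ugt2b35 stood at 40.9, 27.8, 39.9 and 38.1 CPM against 23.9, 15.8, 17.6 and 14.3 CPM (1.06, SE 0.22, adjusted p = 0.0216). These were 2 of 10 genes higher with the label PkmΔDRE, where 0.549% of 13469 genes were called higher and 1.19% lower (1.74% in all). Each of these calls held in 1 of the 4 fits without a replicate. At the other 8 hours no gene was called (edgeR), where at most 0.0075% of all genes were, with 12 of 73 values at an unadjusted p under 0.05 and 1 call by DESeq2. None was called at 4 or 96 h without the outlying libraries either.

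Ugdh was the gene that TCDD moved most steadily. Its difference of TCDD from DMSO was above 0 in 18 of 18 comparisons of label and hour, between 0.01 (PkmΔDRE, 12 h) and 1.43 (WT, 8 h). The outlying libraries are in this count, which is not given without them. Ugdh was at 276.5 CPM in the outlying 4 h library, against 167 to 266.1 CPM in the others of its group. The outlying 96 h library had 208.5 CPM, against 299.8 to 445.2 CPM. Averaged over the 9 hours it was 0.67 in libraries labelled WT (SE 0.10, adjusted p = 1.15e-06, edgeR) and 0.52 in those labelled PkmΔDRE (SE 0.16, adjusted p = 0.043), the latter under the fold change threshold. Ugdh was the single one of the 10 genes called in the average of WT libraries, where 7.79% of 16838 genes were called higher. None was called in the average of PkmΔDRE libraries (edgeR, 1 at an unadjusted p under 0.05, 0 by DESeq2), where 1.06% of 16911 genes were called higher. The difference between the 2 averages was -0.15 (SE 0.19, adjusted p = 0.768), and so was not called. Without the outlying libraries, the average of PkmΔDRE libraries was 0.51 (adjusted p = 0.0464).

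In WT libraries at 8 h, Ugdh was at 157, 161, 189 and 200.4 CPM with DMSO and at 394, 399, 633 and 524 CPM with TCDD. The groups lay well apart, and the difference of 1.43 (SE 0.17, adjusted p = 0.000821, edgeR) was called. TCDD libraries were also above all DMSO libraries at 4 h, with 325 to 437 CPM against 102.05 to 258 CPM, at 24 h, with 333 to 501 CPM against 129.14 to 259 CPM, and at 120 h, with 432 to 609 CPM against 286 to 416 CPM. These differences were 0.99 at 4 h (SE 0.24, adjusted p = 0.286), 1.19 at 24 h (SE 0.23, adjusted p = 0.0594) and 0.56 at 120 h (SE 0.15, adjusted p = 0.0953), none of which was called by edgeR, while DESeq2 called those at 4 and 24 h. At 96 h the difference was 0.55 (SE 0.17, adjusted p = 0.0305), under the fold change threshold, and without the DMSO library with 1717 CPM of Cyp1a1 and a TCDD library where 63.3% of stranded counts lay on 1 strand, it was 0.80 (adjusted p = 0.0019) and called.

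In libraries labelled PkmΔDRE, the largest difference of Ugdh was at 48 h, with 149.8, 262, 143.7 and 92.8 CPM in DMSO and 331, 542, 354 and 328 CPM in TCDD. All TCDD libraries were above all DMSO libraries there, and the difference of 1.17 (SE 0.34, adjusted p = 0.30, edgeR) was not called. At 8 h the values were 243, 311, 286 and 122.99 CPM in DMSO and 227, 515, 435 and 377 CPM in TCDD, with overlap (0.70, SE 0.33). At 24 h they ran from 45.05 to 718 CPM in DMSO and from 118.998 to 894 CPM in TCDD, so that the libraries of a group spread farther than the treatments.

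**Figure D3:**
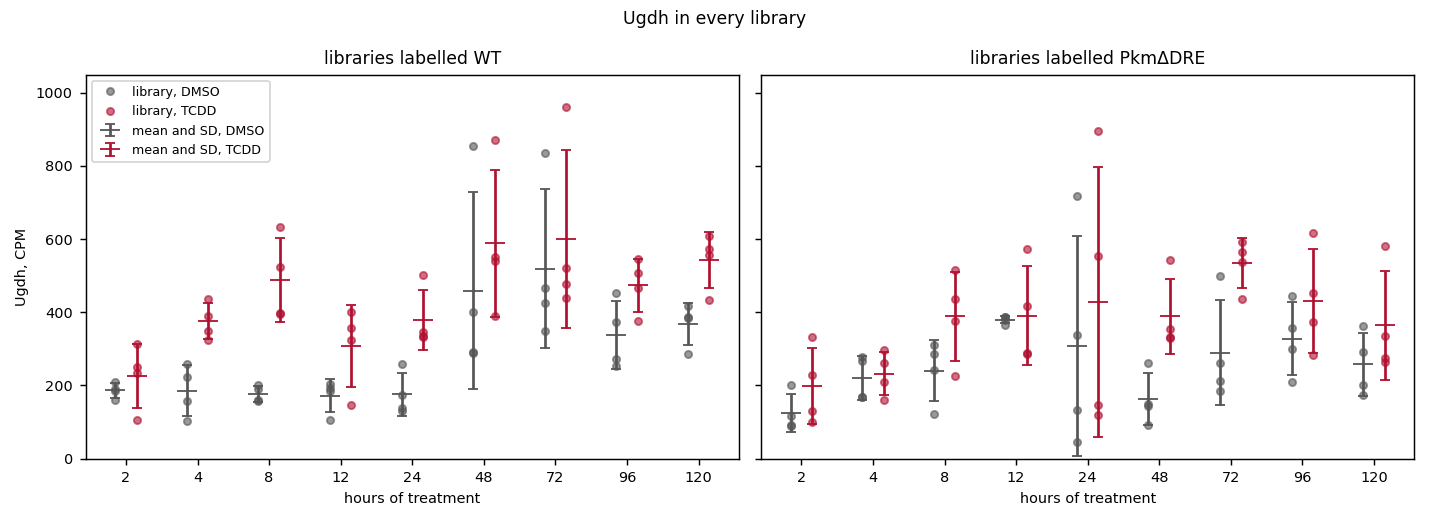
Level of Ugdh in every library (CPM) by hour and treatment, for libraries labelled WT and PkmΔDRE, with group means as bars. With the label WT at 8 h, DMSO libraries lie between 157 and 200 CPM and TCDD libraries between 394 and 633 CPM.

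At 8 h in libraries labelled WT, the 7 genes of family 2 were higher with TCDD together with Ugdh, while neither gene of family 3 was called. These were 8 of 10 genes, where 23.8% of 12392 genes were called higher and 13.6% lower. The median of the 10 log2 differences was 0.83, and that of all genes was 0.00. This hour stood apart from all others in the number of genes called, and its libraries also differed in markers and quality. Macrophage markers summed to 118.3 to 165.7 CPM in the DMSO libraries and 56.07 to 100.7 CPM in the TCDD libraries. Hepatocyte markers summed to 73470 to 86250 CPM and 63160 to 71210 CPM, and neither sum overlapped between treatments. Among the hepatocyte markers, Apoa1, Ttr and Cyp2e1 were lower with TCDD without overlap, and Alb overlapped. Fgb was higher, at 3678 to 4352.2 CPM with TCDD against 3136.3 to 3616.5 CPM with DMSO. The part of these markers in the calls was not tested. Cholangiocyte, endothelial, stellate cell and leukocyte markers overlapped. Pairs that mapped to no gene were 8.89% to 23.04% of uniquely mapped pairs in the 4 TCDD libraries and 5.27% to 6.48% in the 4 DMSO libraries, and the part of this in the calls was not tested beyond a fit with that share as a covariate. In that fit Ugdh had a difference of 1.64, and 7 of the 8 genes were called, without Ugt2b38 (0.77, adjusted p = 0.1185). The percentage did not overlap between treatments, so this fit cannot tell its part from that of TCDD. The share of all genes called in it is not given.

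Ugt2b35 and Ugt2b34 had the largest differences after Ugdh. Ugt2b35 was at 18.2, 25.7, 19.2 and 18.2 CPM with DMSO and at 55.9, 49.4, 68.5 and 40.5 CPM with TCDD (1.36, SE 0.20, adjusted p = 0.00106, edgeR). Ugt2b34 was at 36.8, 40.7, 51.4 and 57.98 CPM and at 63.99, 131.98, 128.7 and 114.004 CPM (1.20, SE 0.22, adjusted p = 0.0019). Neither gene had an overlap between treatments, and both are genes that culture kept or raised.

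The abundant UGT2 genes of fresh hepatocytes rose as well. Ugt2b1 was at 145, 166, 125.3 and 142.6 CPM with DMSO and at 257, 328, 260.4 and 229 CPM with TCDD (0.86, SE 0.15, adjusted p = 0.00158, edgeR). Ugt2b5 went from 110.6, 113.4, 170.3 and 188 CPM to 218, 237, 283 and 298 CPM (0.80, SE 0.18), Ugt2a3 from 48.01, 52.8, 60.3 and 57.9 CPM to 81.5, 86.4, 104.6 and 87.1 CPM (0.68, SE 0.14), and Ugt2b36 from 80.9, 77.96, 111.5 and 117.8 CPM to 134.4, 148, 194 and 153 CPM (0.67, SE 0.17). In each of these the lowest TCDD library lay above the highest DMSO library. The call of Ugt2b36 held in 6 of 8 fits with a library removed and was lost without replicate 2 of DMSO (0.58) or replicate 3 of TCDD (0.55). Ugt2b38 had 10.8, 12.4, 8.97 and 8.59 CPM with DMSO and 20.2, 26.5, 9.75 and 19.3 CPM with TCDD, with 1 TCDD library inside the DMSO range (0.86, SE 0.29, adjusted p = 0.0266), and its call held in 4 of 8 fits with a library removed, being lost without replicate 3 or 4 of DMSO or replicate 2 or 4 of TCDD.

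The family 3 genes were not called. Ugt3a1 was at 26.7, 19.6, 28.6 and 28.4 CPM with DMSO and at 18.7, 21.3, 34.8 and 36.1 CPM with TCDD (0.07, SE 0.23, adjusted p = 0.82). Ugt3a2 was at 235, 233, 199.6 and 195 CPM and at 184, 210.1, 172.3 and 198 CPM (-0.21, SE 0.13, adjusted p = 0.203, edgeR). At 24 h, Ugt3a2 was the single gene with TCDD libraries below all DMSO libraries, at 56.6 to 66.7 CPM against 76.5 to 87.5 CPM (-0.32, SE 0.11, adjusted p = 0.34).

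**Figure D4:**
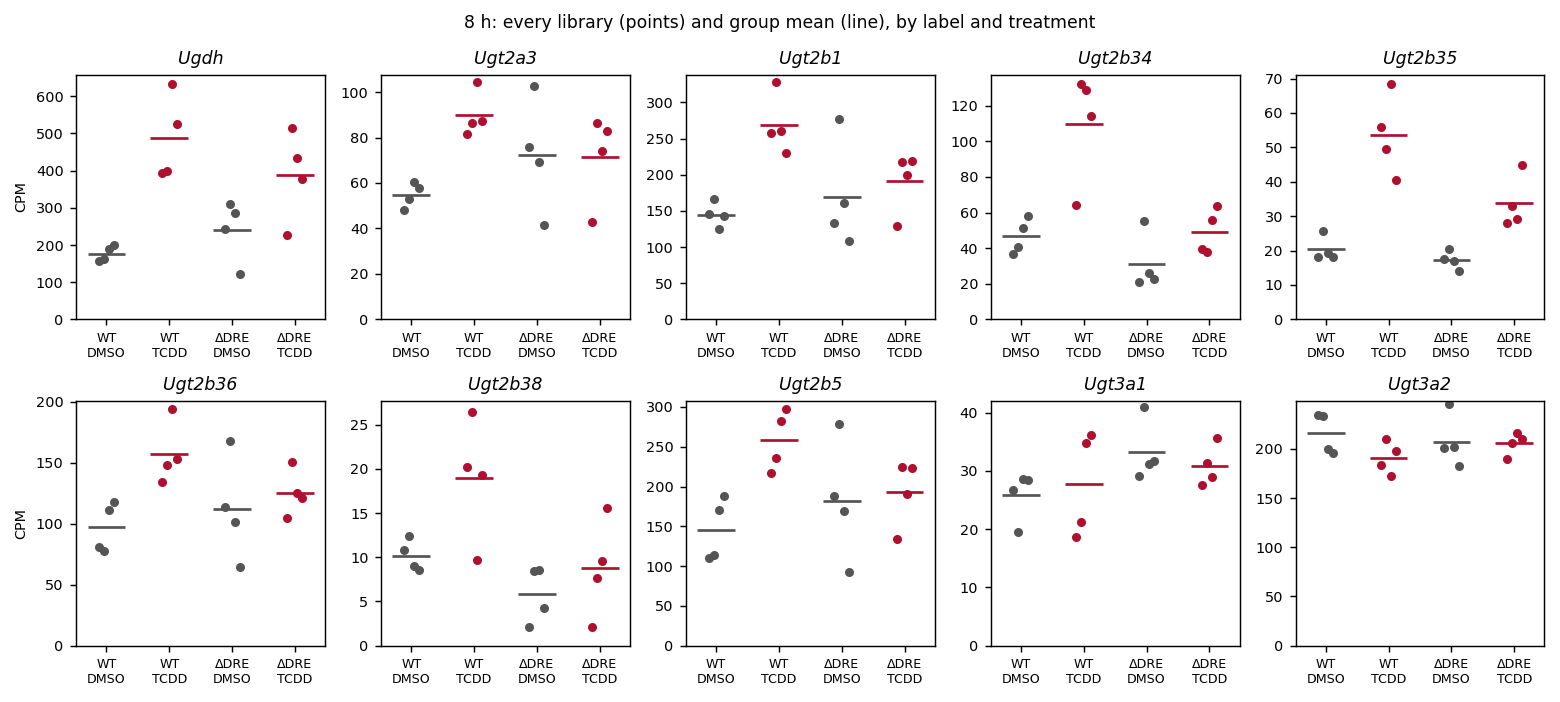
Level of each of the 10 genes at 8 h (CPM, linear axis) in single libraries with DMSO and TCDD, for libraries labelled WT and PkmΔDRE. With the label WT the treatments are apart for 7 genes, and overlap for Ugt2b38, Ugt3a1 and Ugt3a2.

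The calls at 8 h in WT libraries depended on the fit. With a single library removed, Ugdh, Ugt2a3, Ugt2b1, Ugt2b34, Ugt2b35 and Ugt2b5 were each called in 8 of 8 fits. When all libraries were fitted together, the wide spread of other groups entered the error. Ugdh was then the single gene still called (1.30, SE 0.40, adjusted p = 0.02, edgeR), and the share of all genes called is not given. The UGT2 genes had differences of 0.54 to 1.24 in that fit, with adjusted p-values of 0.0719 to 0.54.

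In libraries labelled PkmΔDRE at 8 h, none of the 10 genes was called (edgeR, 1 at an unadjusted p under 0.05, 1 call by DESeq2), where 0.106% of 12293 genes were called. Ugt2b35 had the same order of groups as with the label WT, at 17.7, 20.4, 17.04 and 14.2 CPM with DMSO and 27.9, 32.8, 29.2 and 44.8 CPM with TCDD, without overlap (0.96, SE 0.24, adjusted p = 0.662 by edgeR, and 0.0465 by DESeq2). Ugt2b1 was at 132.6, 277, 161 and 108.4 CPM and at 129.1, 218, 199.99 and 218 CPM (0.19, SE 0.30), and Ugt2b5 at 188, 279, 169 and 92.8 CPM and at 134.1, 224, 190.4 and 223 CPM (0.09, SE 0.31), both with overlap.

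A direct test of how far the response depended on the label called none of the genes at any hour (edgeR, 8 of 83 values at an unadjusted p under 0.05, 0 by DESeq2), where between 0% and 0.00715% of all genes were called. At 8 h it was -0.85 for Ugdh (SE 0.39, adjusted p = 0.309), -0.82 for Ugt2b5 (SE 0.39), -0.81 for Ugt2a3 (SE 0.36) and -0.79 for Ugt2b1 (SE 0.35), the response labelled PkmΔDRE being the smaller. It cannot be said from these libraries that the labels respond alike or that they differ.

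Across all hours, TCDD libraries lay above all DMSO libraries in 13 of 90 pairs of gene and hour with the label WT (14.4%) and below in 1 (1.11%), where 5.59% and 6.56% of all tested pairs did so. With the label PkmΔDRE they lay above in 4 of 90 pairs (4.44%, against 2.45% of all pairs) and below in none (1.57% of all pairs). Without the outlying libraries they lay above in the same 4 pairs (2.81% of all pairs) and below in 1, Ugt3a1 at 4 h (2.06% of all pairs). With this label 83 of the 90 pairs were tested, whereas the shares of all pairs cover tested genes only. Of the 13, 7 were at 8 h, where 23% of all genes were above. Beside Ugdh, the other pairs with the label WT were Ugt2b1 at 4 h, with 344 to 550 CPM against 225 to 325 CPM, and Ugt2b5 and Ugt2b34 at 96 h. Ugt2b5 at 96 h was at 103.9, 79.1, 94.002 and 93.98 CPM with DMSO and at 141.4, 121.4, 122.1 and 129.7 CPM with TCDD (0.53, SE 0.10, adjusted p = 0.00226, edgeR), a difference under the fold change threshold.

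With the label PkmΔDRE, the pairs were Ugdh at 48 h, Ugt2b35 at 8 h, Ugt2b34 at 2 h and Ugt3a2 at 120 h. Ugt2b34 at 2 h was at 61.4, 100.1, 60.9 and 92.6 CPM with DMSO and at 122.9, 230.1, 197 and 127.8 CPM with TCDD (1.18, SE 0.28, adjusted p = 0.28 by edgeR, and 0.0186 by DESeq2). Ugt3a2 at 120 h was at 3.73, 4.12, 2.40 and 1.94 CPM and at 5.29, 7.06, 10.9996 and 5.38 CPM (1.20, SE 0.33, adjusted p = 0.207 by edgeR, and 0.0385 by DESeq2), at a level near the end of its decline. At 96 h the difference of Ugt2b1 was -6.11 with the outlying library and -0.14 without it, that of Ugt2a3 -2.48 and 0.18, and that of Ugt3a2 -2.76 and 1.18.

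**Figure D5:**
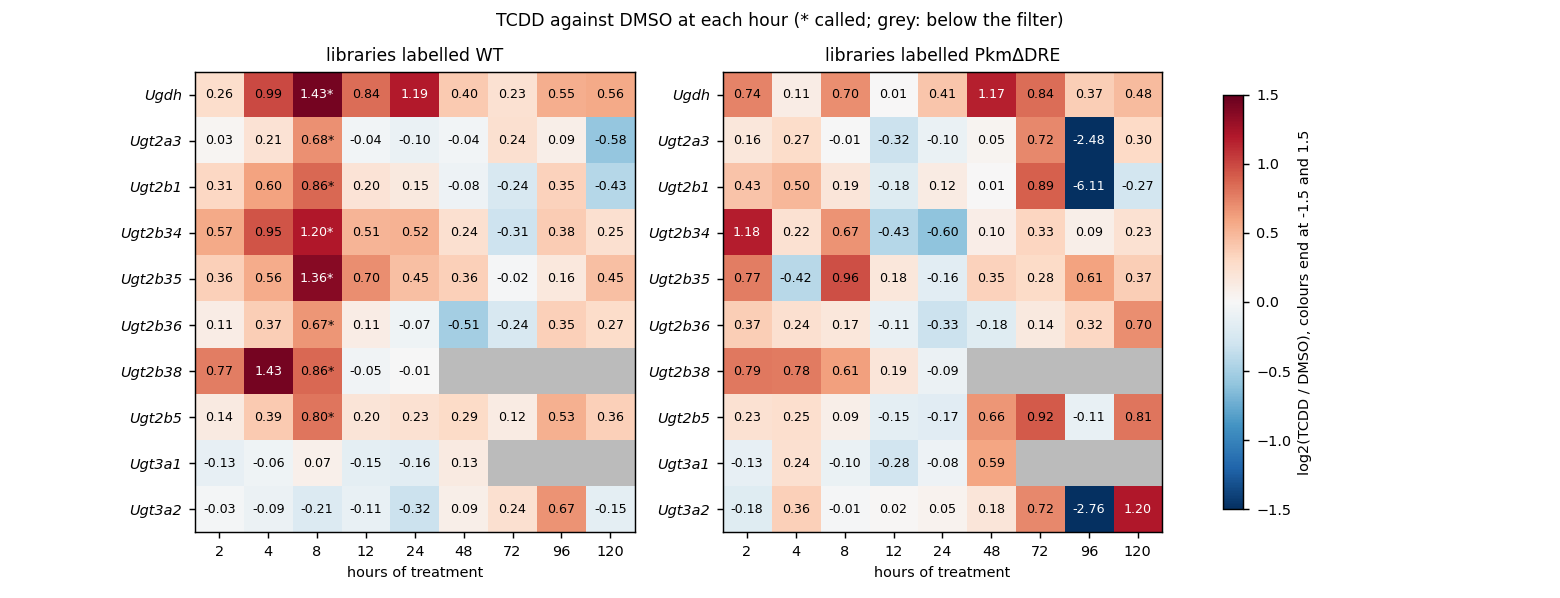
Difference of TCDD from DMSO (log2) for each of the 10 genes at each hour, for libraries labelled WT and PkmΔDRE, with calls marked. Ugdh is above 0 at every hour, with 1.43 at 8 h with the label WT, and the strongly negative values at 96 h with the label PkmΔDRE rest on the outlying library.

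Averaged over the 9 hours with the label WT, Ugt2b34 (0.43, SE 0.15, adjusted p = 0.0177, edgeR), Ugt2b35 (0.44, SE 0.14, adjusted p = 0.0112) and Ugt2b5 (0.29, SE 0.11, adjusted p = 0.0357) passed the test but not the fold change threshold. Ugt2a3 (0.01), Ugt2b36 (0.07), Ugt2b1 (0.15) and Ugt3a2 (-0.03) passed neither. With the label PkmΔDRE the averages of Ugt2b1 and Ugt3a2 were -0.51 and -0.06, and without the outlying libraries they were 0.11 and 0.33, the second with an adjusted p of 0.031.

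The genes around this reaction were followed as a list of 16, of which 15 were tested. They supply UDP-sugars (Pgm1, Ugp2, Uxs1), carry UDP-glucuronate into the endoplasmic reticulum (Slc35d1), use or release glucuronate otherwise (B3gat3, Gusb), turn it into ascorbate or break it down (Akr1a1, Rgn, Gulo, Miox, Cryl1, Dcxr, Xylb), or export conjugates from the cell (Abcc2, Abcc3, Abcg2). At 8 h in WT libraries, 3 were called higher and 4 lower, where 23.8% and 13.6% of all genes were. Ugp2, which makes UDP-glucose and thus the substrate of Ugdh, was at 59.3, 70.4, 59.2 and 55.9 CPM with DMSO and at 91.4, 170.2, 225 and 111.5 CPM with TCDD (1.25, SE 0.24, adjusted p = 0.0021, edgeR). Abcc2, an export pump for conjugates in the canalicular membrane, was at 101.5, 101.6, 98.4 and 98.2 CPM and at 199.7, 268, 399 and 219 CPM (1.41, SE 0.19), and Abcg2, a second export pump, rose by 0.83 (SE 0.22). Gulo, the last enzyme of ascorbate synthesis, fell by 0.84 (SE 0.30). The other 3 that fell were Akr1a1, Dcxr and B3gat3, by 0.62 to 0.82.

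Late in the course, other genes of the list were called. Slc35d1 and Xylb, the kinase at the end of glucuronate breakdown, were higher with TCDD at 96 and 120 h with the label WT and at 72 h with the label PkmΔDRE. Of the 15 tested, 3 were called higher at 96 h and 3 at 120 h with the label WT. With the label PkmΔDRE, 2 were called higher at 72 h and 1 at 48 h. At that last hour 43 of 12876 genes were called higher. At 120 h with the label WT, Slc35d1 was at 115.1, 96.02, 106.5 and 117.7 CPM with DMSO and at 220.1, 217, 177 and 218 CPM with TCDD (0.94, SE 0.11, adjusted p = 0.0031, edgeR), and Xylb at 86.5, 99.2, 88.3 and 106.7 CPM and at 198, 196, 187 and 197 CPM (1.03, SE 0.10, adjusted p = 0.0011). At 72 h with the label PkmΔDRE, their differences were 1.05 (SE 0.20) and 1.09 (SE 0.21). In those comparisons 0.958% (WT, 120 h), 10.1% (WT, 96 h) and 0.808% (PkmΔDRE, 72 h) of all genes were called higher. In vehicle libraries labelled WT, 7 of the 15 were lower at 120 h than at 2 h and none was higher, where 24.5% and 33.4% of all genes were, with Rgn at -8.38 (SE 0.55) and Gulo at -5.74 (SE 0.46).

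Over the means of the 36 groups, levels of the genes that culture lost followed each other closely, with a rank correlation of 0.98 for Ugt2a3 with Ugt2b1, 0.98 for Ugt3a1 with Ugt3a2 and 0.98 for Ugt2a3 with Ugt3a2. Ugt2b35 had 0.84 with Ugt2b34, 0.69 with Ugdh and -0.72 with Ugt2b1. These are descriptions of 36 points that share cultures and hours, and without the outlying libraries no rank correlation between members moved by more than 0.032. Among 9302 other genes, those most like Ugdh were Gclc (0.943), the catalytic subunit of glutamate-cysteine ligase, Gbe1 (0.899), the glycogen branching enzyme, and Gpatch1 (0.863). Those most like Ugt2b35 were Cyp39a1 (0.946) and Ugp2 (0.943). Ugt2a3 was most like Otc (0.996) and C6 (0.991), Ugt2b1 like C8a (0.987) and Cxcl9 (0.985), Ugt3a1 like Asgr1 (0.992) and Pon1 (0.991), Ugt3a2 like F10 (0.997) and Proz (0.996), and Ugt2b38 like Cyp3a11 (0.952) and C8a (0.945). Ugt2b5 was most like Aox3 and Tdo2 (both 0.926), Ugt2b34 like Peli1 (0.925) and Acadsb (0.910), and Ugt2b36 like Iigp1 (0.931) and Gmeb1 (0.919). Without the outlying libraries, none of these correlations with genes outside the 10 moved by more than 0.015.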

How the data were processed

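The authors trimmed paired reads with Trimmomatic 0.39, mapped them with STAR 2.7 to GRCm39 and deposited, for each library, STAR's counts of uniquely mapped read pairs per gene, without normalization, as the column that ignores strand and 2 columns for the strands. The column without strand was used. Rows of pairs on no gene, on several genes or unmapped, 16.8% to 48.0% of all pairs per library (median 24.2%), were left out.

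Groups were taken from the labels. The 10 genes and the lists were chosen with earlier results of these data known, and all 10 are named whatever their values. Values are given for some of the called genes of the pathway list. Differences were tested in R 4.3.3 with edgeR 4.0.16 (quasi-likelihood test, TMM scaling, genes kept at 10 counts in enough libraries and 15 in all) and adjusted by Benjamini-Hochberg over all genes tested. All adjusted p-values in the text are from this test unless DESeq2 1.42.0 is named, and all are two-sided. TCDD was compared with DMSO in the 8 libraries of a label and hour, hours with 2 h in the 36 vehicle libraries of a label, and labels in the 16 libraries of an hour. Averages used all 72 libraries of a label. CPM used TMM scaling over all libraries, and CPM per kilobase the exon length of the gene. Alternatives were RLE scaling, no filter, DESeq2, no fold change threshold, a covariate, 1 fit of all libraries, fits without WT libraries at odds with their labels in Cyp1a1 or in strand, and fits without single replicates. The scripts were tested on simulated data. Promoters came from a RefSeq table of another build (GRCm38.p6), from which no other coordinates were used. Proteins were not used here, and 1 gene of the pathway list is not reported here. Figures were drawn with matplotlib 3.10.9.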

Additional observations from a re-analysis of the deposited data

Results flagged for a closer look

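In each group of 4 libraries, the level of each gene was searched for a single library whose gap to the nearest other library passed Dixon's 95% critical value, a gap that takes up most of the range of the group. This was so in 39 of 328 pairs of gene and group with at least 100 counts, or 11.9%, where chance gives about 1 in 20. They lay in 21 libraries.

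The outlying vehicle libraries labelled PkmΔDRE held 10 of them. Replicate 4 of the 96 h group was the highest for Ugt2a3 (74.4 CPM), Ugt2b1 (249.4 CPM), Ugt2b38 (15.95 CPM), Ugt2b5 (254 CPM), Ugt3a1 (35.8 CPM) and Ugt3a2 (257 CPM). Replicate 4 of the 4 h group was the lowest for Ugt2b1 (0.815 CPM), Ugt3a1 (0 CPM) and Ugt3a2 (2.55 CPM) and the highest for Ugt2b35 (99.5 CPM).

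With the label WT and TCDD, 4 libraries stood apart in several genes. Replicate 1 at 48 h was the highest for Ugt2b34 (393.5 CPM, the others 92.9 to 116.1 CPM), Ugt2b35 (485 CPM) and Ugt2b5 (253 CPM). Replicate 3 at 72 h was the highest for Ugdh (961 CPM, the others 440.3 to 521 CPM), Ugt2b34 (397 CPM) and Ugt2b35 (420.0 CPM). Replicate 3 at 120 h was the lowest for Ugt2b34 (107.2 CPM), Ugt2b35 (151 CPM), Ugt2b36 (166 CPM) and Ugt2b5 (77.4 CPM). Replicate 2 at 12 h was the lowest for Ugt2a3 (27.1 CPM), Ugt2b36 (51.5 CPM) and Ugt3a1 (11.8 CPM).

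The others were single values or pairs. Replicate 2 of PkmΔDRE with TCDD at 48 h was the highest for Ugdh (542 CPM) and Ugt2a3 (9.02 CPM), and replicate 3 at 72 h for Ugt3a2 (16.4 CPM). With the label WT and TCDD, 1 library stood apart for Ugdh at 24 h (501 CPM), Ugt2b5 at 4 h (623 CPM) and Ugt3a2 at 48 h (20.6 CPM). In WT vehicle libraries this was so for Ugt2b36 at 2 h (533 CPM), Ugt2b1 at 4 h (225 CPM) and 24 h (60.8 CPM), Ugt2b5 at 4 h (554.5 CPM) and 120 h (55.8 CPM), Ugt2b35 at 8 h (25.7 CPM) and Ugt3a2 at 72 h (17.5 CPM). In PkmΔDRE vehicle libraries it was so for Ugt2b34 at 8 h (55.15 CPM) and, at 24 h, for Ugt3a1 (12.98 CPM) and Ugt3a2 (61.8 CPM). No gene moved in opposite directions under the 2 labels without overlap of libraries.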

How the results depend on the processing

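A set of values of single genes, not all of them, was compared under the alternatives. Of these, 566 kept their direction and side of the threshold under an alternative, 51 lost a call, 5 gained one and 18 changed sign. These 18 were averages over the 9 hours, called in neither fit. The differences of Ugt2a3 and Ugt3a2 at 96 h with the label PkmΔDRE were outside this set. They also changed sign without the outlying library. Without the outlying libraries, the averages with the label PkmΔDRE became 0.078 for Ugt2a3, 0.11 for Ugt2b1, 0.14 for Ugt2b38, 0.18 for Ugt3a1 and 0.33 for Ugt3a2. Fits without a replicate gave, with that label, -0.25 to 0.011 for Ugt2a3, -0.60 to 0.11 for Ugt2b1, -0.71 to 0.20 for Ugt3a1 and -0.20 to 0.37 for Ugt3a2, and with the label WT -0.028 to 0.14 for Ugt2a3, -0.58 to 0.45 for Ugt2b38 and -0.069 to 0.047 for Ugt3a2. With the label WT, the average of Ugt2b38 was -0.32 without the WT libraries at odds with their labels, and those of Ugt2a3 and Ugt3a2 were -0.0052 and 0.043 with the covariate named below. The TCDD calls at single hours changed most. With the label WT, 8 calls became 1 when all libraries were fitted together, and fits without a replicate gave 7 to 8. With the label PkmΔDRE, 0 calls became 5 in the fit of all libraries (all lower, all at 96 h, in Ugt2a3, Ugt2b1, Ugt2b38, Ugt3a1 and Ugt3a2, where the outlying library is 1 of the DMSO libraries), 3 with DESeq2, 4 when genes of low count were kept and 2 with a covariate, the percentage of unique pairs outside genes. In the averages over the 9 hours, 0 calls with the label PkmΔDRE became 1 without a fold change threshold and 1 with the covariate, and 1 call with the label WT became 4 without that threshold. The 2 calls between labels in vehicle became 1 with RLE scaling and lay between 0 and 3 without a replicate. The 6 calls at 24 h against 2 h with the label PkmΔDRE became 3 without a filter and 3 with the covariate, and lay between 2 (without replicate 1) and 9 (without replicate 4), while those at 120 h lay between 6 and 7 (8 in the full data) and those with the label WT between 8 and 9 at 120 h. The cause of these changes was not tested. The alternative without the outlying libraries was chosen after seeing the data and left these counts within 1.5 times, but not those of vehicle against 2 h with the label PkmΔDRE at 8 h (1 and 5), 12 h (3 and 7) and 96 h (5 and 8). No paired analysis was possible because the labels give no replicate numbers that tie a library of one group to a library of another. With 4 libraries a group, the spread of Ugdh at 24 h with the label PkmΔDRE (45.05 to 718 CPM in DMSO) sets what can be seen there. Ugt2b38 and Ugt3a1 were too low at late hours to be tested between treatments or labels, but were tested against 2 h.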
